A study of Mus musculus with 5 samples.

Results

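The genes described here are 10 early response genes of the EGR, NR4A, IER and KLF families, Egr1, Egr2, Egr3, Nr4a1, Nr4a2, Ier2, Ier3, Klf2, Klf4 and Klf6. They were taken by gene name from a table of 23284 genes, and all 10 names were found once each. The table holds RNA sequencing of primary melanomas in C57BL/6 J mice, with 3 libraries from B16F1 and 2 from B16F1-CXCL5, the same cells made to overexpress the neutrophil-attracting chemokine CXCL5. B16F1 is a mouse melanoma line of the B16 tumor, which arose in the C57BL/6 strain. Both kinds of cell were placed intradermally in the flank, neither group was treated, and tumors of 250 to 350 mm³ were taken out and snap frozen. The age of the mice, the promoter that drives CXCL5, whether B16F1-CXCL5 is 1 clone and whether each library is 1 mouse are not stated in the labels, so the p-values cover only the spread among these 5 libraries. The comparison asks how the primary tumor differs when its melanoma cells overexpress CXCL5. Whole tumors were sequenced, so fewer cells of a type and less RNA per cell cannot be told apart.

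Immediate early genes are transcribed within minutes of a growth factor, cytokine, stress or calcium signal, from transcription factors that the cell already holds, and their mRNAs are short-lived. Serum response factor with its ETS partners, and CREB-type factors, are well-known activators of many of them. EGR1, EGR2 and EGR3 are zinc finger transcription factors that bind GC-rich sites, and NR4A1 and NR4A2 are orphan nuclear receptors that act without a classical ligand. IER2 is a small nuclear protein and IER3 a regulator of survival and of ERK signalling. KLF2, KLF4 and KLF6 are Krüppel-like zinc finger factors, of which KLF2 and KLF4 are known for the quiescent state of endothelium and KLF4 also for the barrier of the epidermis.

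Promoter sequences are shown for 3 members whose values are described in detail below, Egr2, which did not overlap between the groups, and the pair Nr4a1 and Nr4a2, whose profiles over the libraries were alike. Each covers 250 bases before to 50 bases after an annotated start, from RefSeq on GRCm38.p6, written 5′ to 3′ on the strand of the gene. The table of promoters held windows for 7 of the 10 members. Egr2 is shown at chr10:67537619-67537918 on the plus strand, Nr4a1 at chr15:101266596-101266895 on the plus strand and Nr4a2 at chr2:57123954-57124253 on the minus strand. Of 5 Egr2 windows, this is the first with the most marked matches. Capitals mark the CArG box, the core that serum response factor binds, TGACG, a core part of the cAMP response element, and TGCGTCA, a variant of that element, on either strand. Every TGCGTCA holds a TGACG on the other strand, so these overlap.
Egr2: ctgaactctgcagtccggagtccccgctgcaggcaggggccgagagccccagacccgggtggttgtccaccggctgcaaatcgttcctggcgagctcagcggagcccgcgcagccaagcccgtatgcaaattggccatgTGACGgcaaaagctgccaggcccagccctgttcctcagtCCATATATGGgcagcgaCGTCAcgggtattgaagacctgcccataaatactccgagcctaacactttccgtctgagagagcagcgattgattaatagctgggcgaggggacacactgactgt
Nr4a1: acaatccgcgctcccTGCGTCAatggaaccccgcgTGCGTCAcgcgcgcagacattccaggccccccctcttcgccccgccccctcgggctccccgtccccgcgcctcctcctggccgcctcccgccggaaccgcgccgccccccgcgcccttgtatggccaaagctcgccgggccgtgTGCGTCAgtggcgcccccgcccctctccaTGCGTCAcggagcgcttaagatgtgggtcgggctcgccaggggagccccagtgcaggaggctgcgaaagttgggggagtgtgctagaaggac
Nr4a2: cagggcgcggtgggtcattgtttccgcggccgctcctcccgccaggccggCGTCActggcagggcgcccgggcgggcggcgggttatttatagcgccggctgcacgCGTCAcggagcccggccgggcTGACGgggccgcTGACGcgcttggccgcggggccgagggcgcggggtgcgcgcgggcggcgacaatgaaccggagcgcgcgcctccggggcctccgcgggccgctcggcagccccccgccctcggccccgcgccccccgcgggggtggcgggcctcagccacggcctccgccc
The Egr2 window held 1 CArG box, CCATATATGG, with its first base at -72 from the start, and 2 matches of TGACG. The Nr4a1 window held 4 copies of TGCGTCA, and it was the 1 window of 32851 with that many. The Nr4a2 window held 4 matches of TGACG, a number that 0.231% of all windows reached. The members with a window that is not printed were Ier3, Klf2, Klf4 and Klf6, of which Ier3 and Klf2 also did not overlap between the groups. Their windows held 0 CArG boxes and 0 copies of TGCGTCA. Klf2 and Klf4 had 1 match of TGACG each, and Ier3 and Klf6 had 0, so the printed windows do not stand for all members. Over all windows, 1.63% held a CArG box, 2.12% TGCGTCA and 20.81% TGACG. The GC box GGGCGG, bound by SP and KLF factors, was in 35.66% of all windows and in at least 1 window of each of the 7 members. Neither GCGTGGGCG, an EGR site, nor AAAGGTCA, the NR4A monomer site, was in any member window, and they were in 0.61% and 1.51% of all windows. A match is only a run of letters.

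Cxcl5 was at 1.86, 3.62 and 1.01 FPKM (fragments per transcript kilobase and library size) in B16F1 libraries 1, 2 and 3 and at 83.7 and 85.4 FPKM in B16F1-CXCL5 libraries 1 and 2, so that the gene follows the labels. The steps between low values imply a depth of 26600000 to 28200000 fragments per library. Of 12533 genes with at least 1 FPKM in at least 2 libraries, 17 passed a limma adjusted p of 0.05, 16 higher and 1 lower in B16F1-CXCL5. That count fell to 3 when B16F1-CXCL5 library 1 was left out, to 2 when B16F1-CXCL5 library 2 was and to 11 when B16F1 library 2 was, and it came to 34 when B16F1 library 3 was. The 9 melanocyte markers summed to 9434 to 12840 FPKM in the 5 libraries, and none was under the filter. B16F1 library 3 stood apart with the highest sums of keratinocyte, skeletal muscle and fat markers, and its values are given beside the results they touch.

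All 10 members passed the filter on low values, and 0 passed limma over all genes, against a background of 0.136% of tested genes. At an unadjusted limma p under 0.05 there were 3 members higher, Egr1, Egr2 and Ier3, and 0 lower, where 3.57% of tested genes were higher and 5.39% lower. The libraries of the groups did not overlap for 4 members, Egr1, Egr2, Ier3 and Klf2, all higher in B16F1-CXCL5, where 10.8% of tested genes were higher without overlap and 15.6% lower. The other 6 overlapped. Of the 10 log2 fold changes, on the log2(FPKM + 1) scale and as B16F1-CXCL5 minus B16F1, 9 were above 0, as were 46.6% of tested genes. Their median was 0.29, and the median over all tested genes was -0.01. Because the members share the same 5 tumors, they are not separate tests of the comparison.

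**Figure D1:**
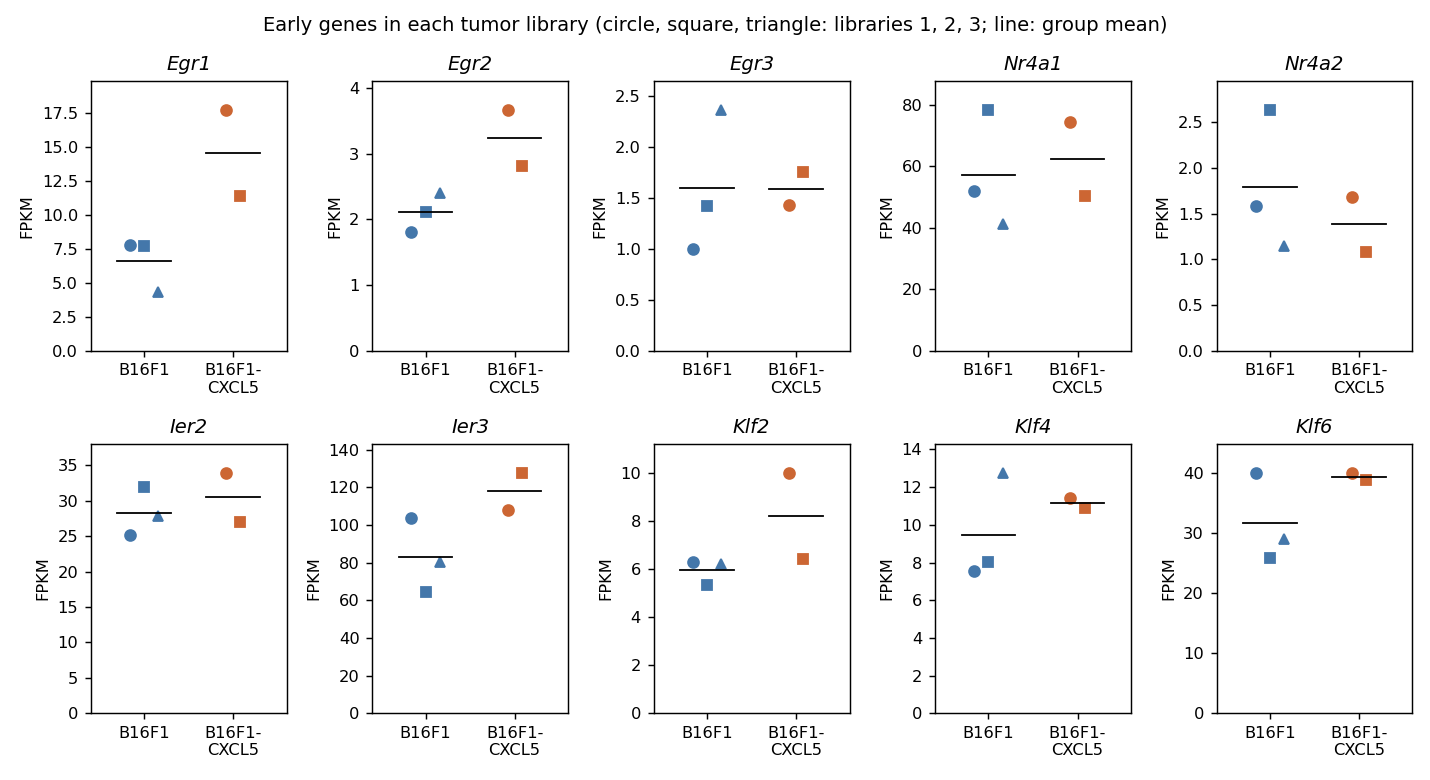
FPKM of each early gene (y axis, linear from 0) in the B16F1 libraries (blue) and the B16F1-CXCL5 libraries (orange), with circles, squares and triangles for libraries 1, 2 and 3 and a line at each group mean. Egr1 shows the widest gap between groups relative to its level, from 7.83 FPKM in the highest B16F1 library to 11.4 FPKM in the lower B16F1-CXCL5 library, while Egr3, Nr4a1, Nr4a2, Ier2, Klf4 and Klf6 overlap.

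The members covered a wide range of levels, which FPKM, as a value per transcript length, allows to be compared between genes. In B16F1 tumors Ier3 had the highest mean, 82.8 FPKM, followed by Nr4a1 at 57.1, Klf6 at 31.7, Ier2 at 28.3, Klf4 at 9.46, Egr1 at 6.65, Klf2 at 5.96, Egr2 at 2.10, Nr4a2 at 1.79 and Egr3 at 1.59 FPKM. The libraries separated Nr4a1 from Klf6, Ier2 from Klf4 and Klf2 from Egr2 in both groups. Klf4 and Egr1, and Nr4a2 and Egr3, overlapped in both groups. Ier3 overlapped Nr4a1, Klf6 overlapped Ier2, Egr1 overlapped Klf2 and Egr2 overlapped Nr4a2 in the B16F1 libraries only, as observed ranges of 3 libraries against 2.

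Egr1, the prototype of its family and a target of ERK signalling through serum response factor, had the largest difference of the 10 members between the group means on the log2 scale. It is found on chromosome 18 of GRCm38, from 34859823 to 34864984, plus strand. Its level was 7.83, 7.76 and 4.36 FPKM in B16F1 libraries 1, 2 and 3 and 17.8 and 11.4 FPKM in B16F1-CXCL5 libraries 1 and 2. Both B16F1-CXCL5 libraries were above all 3 B16F1 libraries, and library 3 of B16F1 was the lowest. The group means, 6.65 ± 1.98 (SD, n = 3) and 14.6 ± 4.51 FPKM (SD, n = 2), were 2.19-fold apart. Limma gave a log2 fold change of 1.03, with an SE of 0.29 and a 95% interval from 0.33 to 1.74, and the limma adjusted p was 0.433. Permuted exactly over all 10 splits and read two-sided, its p was 0.1, which is the smallest possible. With 1 library left out the log2 fold change lay between 0.73 and 1.33.

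Egr2, a factor of myelinating Schwann cells and of lymphocyte tolerance, was low in all tumors. It lies on chromosome 10 from 67535475 to 67542188. Its level was 1.81, 2.11 and 2.39 FPKM in B16F1 libraries 1, 2 and 3 and 3.66 and 2.81 FPKM in the B16F1-CXCL5 libraries. By the implied depth, about 187 fragments lay behind B16F1 library 3 and 218 behind B16F1-CXCL5 library 2. Counting alone gives an SD of 8.67% at the lowest number, 133 in B16F1 library 1. The groups did not overlap, and the nearest libraries, B16F1 library 3 and B16F1-CXCL5 library 2, were close to each other. On the log2 scale it was 0.45 higher with an SE of 0.15 (limma adjusted p = 0.484, exact permutation p = 0.1), from 2.10 ± 0.293 to 3.24 ± 0.603 FPKM (SD, n = 3 and 2).

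Egr3, an early gene downstream of antigen receptor and growth factor signals that can take over from Egr1 in time, had nearly the same mean in both groups. Its level was 0.9998, 1.42 and 2.36 FPKM in B16F1 libraries 1, 2 and 3 and 1.43 and 1.75 FPKM in the B16F1-CXCL5 libraries. The B16F1-CXCL5 libraries lay inside the B16F1 range, and B16F1 library 3 was the highest of the 5, where Egr1 was the lowest. Its log2 fold change was 0.03 with a 95% interval from -0.57 to 0.62 (limma adjusted p = 0.988). It turned to -0.14 when B16F1 library 1 was left out, to -0.0044 when B16F1 library 2 was and to -0.0615 when B16F1-CXCL5 library 2 was. Egr1 divided by Egr3 was 7.83, 5.47 and 1.85 in B16F1 libraries 1 to 3 and 12.4 and 6.49 in those of B16F1-CXCL5, so that the ratio overlapped between the groups. Egr4, the other gene of the family, did not pass the filter, with at most 0.333 FPKM.

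Nr4a1, also called Nur77, is an early gene of T cell receptor signalling, of macrophages and of cells under cAMP signals, and it was among the highest members. The gene lies on chromosome 15 from 101254269 to 101274795. Its level was 51.9, 78.3 and 41.2 FPKM in B16F1 libraries 1, 2 and 3 and 74.4 and 50.2 FPKM in the B16F1-CXCL5 libraries. The highest and the lowest library were both B16F1 tumors, libraries 2 and 3. The means were 57.1 ± 19.1 and 62.3 ± 17.2 FPKM (SD, n = 3 and 2), a log2 fold change of 0.15 with a 95% interval from -0.59 to 0.88 (limma adjusted p = 0.937). The sign turned, to -0.06 without B16F1 library 3 and to -0.13 without B16F1-CXCL5 library 1. Replicate numbers as a block gave the same -0.06, because B16F1 library 3 has no partner there.

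Nr4a2, or Nurr1, the receptor known for dopaminergic neurons, was lower than Nr4a1 in every library. It lies on chromosome 2 from 57106830 to 57124003 on the minus strand. Its level was 1.58, 2.63 and 1.15 FPKM in B16F1 libraries 1, 2 and 3 and 1.69 and 1.08 FPKM in the B16F1-CXCL5 libraries. As with Nr4a1, B16F1 library 2 was the highest, B16F1-CXCL5 library 1 came next and B16F1 library 1 after it. Its log2 fold change was -0.20 with a 95% interval from -0.84 to 0.44 (limma adjusted p = 0.884), and it was 0.0056 without B16F1 library 2. The ratio of Nr4a1 to Nr4a2 was 32.8, 29.7 and 35.8 in B16F1 libraries 1 to 3 and 44.2 and 46.4 in those of B16F1-CXCL5, so that it did not overlap between the groups. This ratio, like that of Egr1 to Egr3, was not planned and not tested. The share of other gene pairs whose ratio separates the groups was not measured. About 102 to 238 fragments lay behind the Nr4a2 values, and so behind the ratio, with a counting SD of 9.9% at the lowest. Nr4a3, or NOR1, the other receptor of the family and no member of the group, had 45.6, 53.7 and 33.3 FPKM in B16F1 libraries 1, 2 and 3 and 23.3 and 32.4 FPKM in the B16F1-CXCL5 libraries. Its groups did not overlap, but B16F1 library 3 and B16F1-CXCL5 library 2 were close to each other. Of tested genes, 15.6% were lower without overlap. Nr4a3 was lower in B16F1-CXCL5 at -0.64 on the log2 scale (SE 0.23), which did not pass (limma adjusted p = 0.510, exact permutation p = 0.2). The ratio of Nr4a3 to Nr4a1, taken after the values were seen and not tested, was 0.878, 0.685 and 0.809 in B16F1 libraries 1 to 3 and 0.313 and 0.646 in those of B16F1-CXCL5.

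Ier3, also known as IEX-1, an NF-kB and ERK target that modulates apoptosis, had the highest level of all members in both groups by its mean. The gene lies on chromosome 17 from 35821684 to 35822923. Its level was 103.6, 64.7 and 80.3 FPKM in B16F1 libraries 1, 2 and 3 and 108.2 and 127.8 FPKM in the B16F1-CXCL5 libraries. The groups did not overlap, but B16F1 library 1 came near B16F1-CXCL5 library 1. The means were 82.8 ± 19.6 and 118.0 ± 13.9 FPKM (SD, n = 3 and 2), 1.42-fold apart and 0.53 on the log2 scale (SE 0.20, limma adjusted p = 0.535, exact permutation p = 0.2). The value ranged from 0.36 to 0.70 with 1 library left out.

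Ier2, a nuclear early protein formerly called pip92, varied least of the members on the ratio of the highest to the lowest library, 1.35. Its level was 25.2, 31.9 and 27.8 FPKM in B16F1 libraries 1, 2 and 3 and 33.95 and 26.98 FPKM in the B16F1-CXCL5 libraries. The lower B16F1-CXCL5 library lay inside the B16F1 range. Limma gave a log2 fold change of 0.10 with a 95% interval from -0.25 to 0.45 (limma adjusted p = 0.8999), and -0.0595 when B16F1-CXCL5 library 1 was left out.

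Klf2, a flow-induced factor of endothelium that also keeps T cells and macrophages quiescent, separated the groups by a small margin. The gene lies on chromosome 8 from 72319033 to 72321656. Its level was 6.30, 5.33 and 6.24 FPKM in B16F1 libraries 1, 2 and 3 and 10.03 and 6.44 FPKM in the B16F1-CXCL5 libraries. Library 1 of B16F1-CXCL5 was high, while library 2 was just above the highest B16F1 library. By the implied depth, about 297 fragments lay behind B16F1-CXCL5 library 2, and 276, 235 and 290 behind B16F1 libraries 1, 2 and 3. Counting alone gives an SD of 6.52% at the lowest of these numbers, so the margin is within counting noise. Limma gave 0.38 on the log2 scale with an SE of 0.18 (limma adjusted p = 0.628, exact permutation p = 0.1), and it became 0.10 when B16F1-CXCL5 library 1 was left out and 0.67 when B16F1-CXCL5 library 2 was.

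Klf4, a factor of the suprabasal epidermis, of endothelium and of monocytes, overlapped between groups. Its level was 7.57, 8.05 and 12.8 FPKM in B16F1 libraries 1, 2 and 3 and 11.4 and 10.9 FPKM in the B16F1-CXCL5 libraries. B16F1 library 3 was the highest of the 5, and libraries 1 and 2 of B16F1 were the lowest. On the log2 scale the difference was 0.25 with an SE of 0.22 (limma adjusted p = 0.800). It was 0.47 when B16F1 library 3 was left out, 0.12 when B16F1 library 1 was and 0.16 when B16F1 library 2 was. B16F1 library 3 had 1282 FPKM of the 13 keratinocyte markers, against 481 to 720.5 FPKM in the other 4 libraries. It also had the highest Klf5, a factor of basal epithelium, at 3.89 FPKM against 1.59 to 2.13 FPKM, and was chosen after its values were seen. Skin was not the only high list in B16F1 library 3. It also had the highest sums of endothelial (84.7 FPKM), fibroblast (1929 FPKM), pericyte (134.5 FPKM), muscle (1760 FPKM) and fat markers (318 FPKM). The part of skin or of any of these cell types in the Klf4 and Egr3 values was not tested.

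Klf6, a widely expressed factor induced by injury and stress, had 40.1, 25.9 and 29.1 FPKM in B16F1 libraries 1, 2 and 3 and 40.03 and 38.9 FPKM in the B16F1-CXCL5 libraries. B16F1 library 1 was as high as the B16F1-CXCL5 libraries, and the other B16F1 libraries were lower. Limma gave a difference of 0.33 on the log2 scale with an SE of 0.18 (limma adjusted p = 0.687), which became 0.51 when B16F1 library 1 was left out and 0.20 when B16F1 library 2 was. Among 13 tested relatives outside the 10 members, 0 passed limma over all genes, and 2 were higher and 2 lower without overlap, which is near the shares of tested genes, 10.8% and 15.6%. Their median log2 fold change was 0.08, from 0.0458 without B16F1-CXCL5 library 2 to 0.13 without B16F1 library 1, and it was -0.0151 with no filter on low values. Klf11, a TGF-beta-inducible factor, had 3.09 ± 0.707 and 4.64 ± 0.0819 FPKM (SD, n = 3 and 2), and Klf16 had 11.2 ± 0.745 and 8.94 ± 0.818 FPKM (limma adjusted p = 0.492 and 0.488). Egr4, Klf1, Klf8, Klf14 and Klf17 were under the filter.

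**Figure D2:**
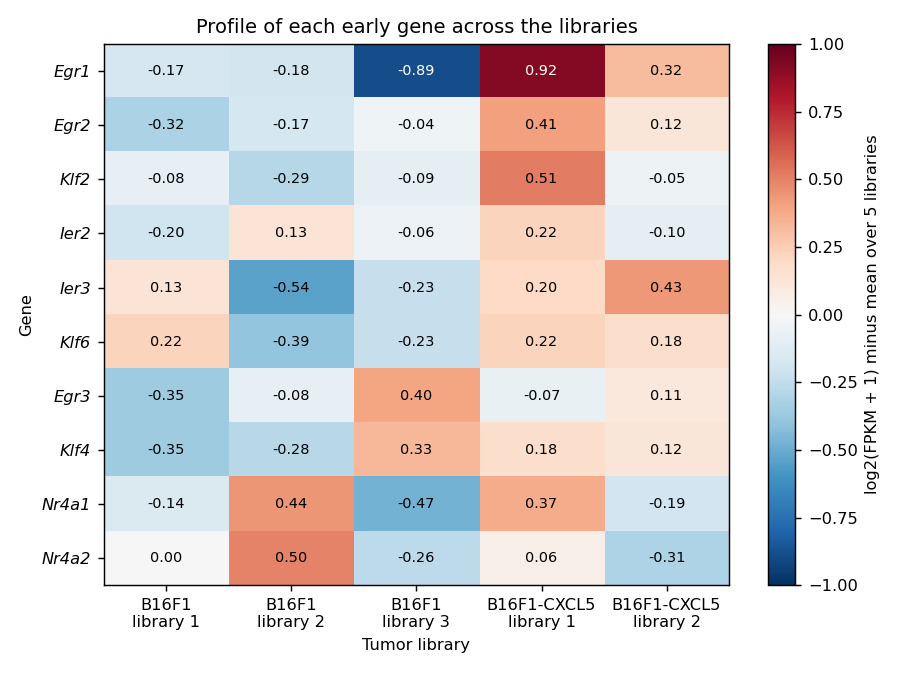
Each cell gives log2(FPKM + 1) of a gene (rows) in a library (columns) minus its mean over the 5 libraries, from blue (lower) to red (higher). Egr1 runs from -0.89 in B16F1 library 3 to 0.92 in B16F1-CXCL5 library 1, Egr3 and Klf4 are highest in B16F1 library 3, and Nr4a1 and Nr4a2 are highest in B16F1 library 2.

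The members did not share 1 profile over the 5 libraries. B16F1-CXCL5 library 1 was the highest for 4 members, B16F1 libraries 2 and 3 for 2 each, and B16F1 library 1 and B16F1-CXCL5 library 2 for 1 each. Likeness was measured as the root mean square distance between profiles of log2(FPKM + 1) centred on the mean of each gene over 5 libraries, as a description. The closest pairs of members were Ier3 and Klf6 at 0.139, Egr3 and Klf4 at 0.146, Egr2 and Klf2 at 0.15 and Nr4a1 and Nr4a2 at 0.188. The most distant pair was Egr1 and Egr3 at 0.738, although both belong to the same family. Against the mean profile of the 10 members, the 5 closest tested genes were Tmem98, Prkcc, N4bp2, Fam167b and Nfil3, at 0.0339 to 0.0521. Nfil3, a basic leucine zipper factor, had 5.40, 5.29 and 5.52 FPKM in B16F1 libraries 1, 2 and 3 and 8.10 and 6.19 FPKM in the B16F1-CXCL5 libraries.

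Set against other early genes one by one, Egr1 was closest to Dusp1, the phosphatase that inactivates MAP kinases, at a distance of 0.0619. Among all 12532 other tested genes, Dusp1 had rank 1. It had 18.03, 18.2 and 10.2 FPKM in B16F1 libraries 1, 2 and 3 and 36.97 and 27.4 FPKM in the B16F1-CXCL5 libraries, in the same order of groups as Egr1 and with B16F1 library 3 lowest. Fos, the AP-1 subunit, had that same form, with 31.9, 32.3 and 14.3 FPKM in B16F1 libraries 1, 2 and 3 and 68.2 and 48.7 FPKM in the B16F1-CXCL5 libraries. Klf6 was closest to Ctgf, a matricellular protein downstream of TGF-beta and YAP, at 0.0497, which was rank 2 among all other tested genes. Ctgf had 21.5, 14.5 and 14.8 FPKM in B16F1 libraries 1, 2 and 3 and 20.7 and 20.1 FPKM in the B16F1-CXCL5 libraries, so that B16F1 library 1 was again level with the B16F1-CXCL5 tumors. For the other 8 members the nearest early gene was farther down the order, from rank 23 for Ier3 to rank 879 for Ier2. Dusp1, Fos and Ctgf were named after their values were seen.

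The members varied between tumors of the same group more than most genes did. The SD within groups of log2(FPKM + 1) was at or above the median of tested genes, 0.119, for all 10 members, from 0.163 for Egr2 to 0.441 for Nr4a1. Nr4a1 was at the percentile 94.3 of all tested genes, Egr1 at 93.6 and Egr2 at 69.1. Among tested genes of like level, taken in 10 bins of equal size by mean level, Nr4a1 was at the percentile 96.4, Egr1 at 94.4, Ier3 at 93.5 and Klf6 at 92.1, while Egr2 was at 47.6. The approximate number of fragments behind a value, from the implied depth and the length of the principal transcript, was 99 to 249 for Egr3, 102 to 238 for Nr4a2 and 2731 to 4937 for Nr4a1. The highest B16F1 library was 2.36-fold above the lowest for Egr3 and 1.902-fold for Nr4a1. Noise from library preparation was not measured.

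**Figure D3:**
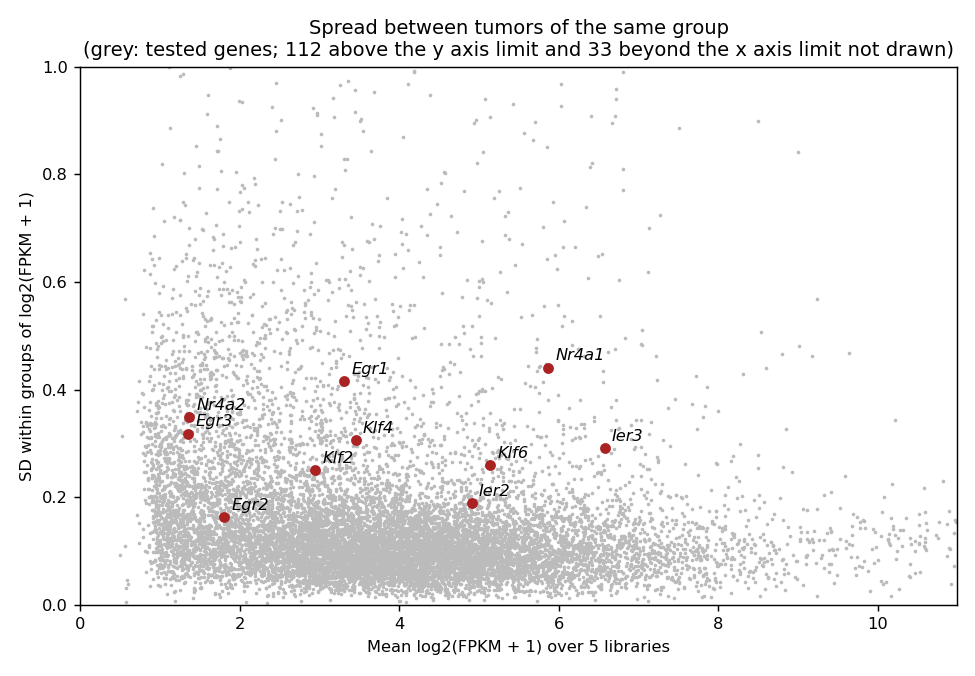
SD within groups of log2(FPKM + 1) (y axis) against mean log2(FPKM + 1) over 5 libraries (x axis) for tested genes (grey) and the 10 early genes (red). Nr4a1, at an SD of 0.441, and Egr1, at 0.416, lie above most genes of their level, and Egr2, at 0.163, lies among them.

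Other early genes, from a list that includes AP-1 subunits, feedback phosphatases and mRNA-decay factors, had mostly positive differences. Of 22 tested, 0 passed limma over all genes, 19 had a positive log2 fold change (46.6% of tested genes did), and 12 were higher and 0 lower without overlap, where 10.8% of tested genes were higher and 15.6% lower. Their median log2 fold change was 0.52, against -0.01 over all tested genes. The genes of this list and of those below share the same 5 tumors. Like the members, they are not separate tests of the comparison, and the lists were chosen with earlier results of these data known. The smallest p-values were those of Atf3, a stress-induced factor of the CREB family, Fosl2, an AP-1 subunit, and Csrnp1, a nuclear factor induced by AXIN1. Atf3 had 7.82 ± 1.19 and 12.9 ± 0.464 FPKM, Fosl2 8.73 ± 0.344 and 12.0 ± 0.760 FPKM and Csrnp1 3.59 ± 0.245 and 5.38 ± 0.231 FPKM (SD, n = 3 and 2), with limma adjusted p-values of 0.313, 0.323 and 0.332. Without B16F1 library 1, 1 gene of the list passed, Cyr61, a matricellular protein (log2 fold change 1.40, limma adjusted p = 0.026). Cyr61, named after its values were seen, had 41.8, 21.4 and 22.9 FPKM in B16F1 libraries 1, 2 and 3 and 60.4 and 60.01 FPKM in the B16F1-CXCL5 libraries.

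Known targets of EGR factors were mixed. Of 7 tested, 0 passed limma over all genes, and 4 were higher and 1 lower without overlap, beside 10.8% and 15.6% of tested genes. Their median log2 fold change was 0.26, or -0.01 with no filter on low values. Thbs1, the matrix protein thrombospondin 1, had 11.04, 10.15 and 11.03 FPKM in B16F1 libraries 1, 2 and 3 and 19.8 and 17.0 FPKM in the B16F1-CXCL5 libraries. Both B16F1-CXCL5 libraries were far above the narrow B16F1 range, 0.72 higher on the log2 scale (SE 0.10, limma adjusted p = 0.106). F3, the coagulation starter tissue factor, had 22.5 ± 3.23 and 31.8 ± 0.877 FPKM (SD, n = 3 and 2), and Tgfb1 22.1 ± 1.93 and 26.5 ± 0.0393 FPKM (limma adjusted p = 0.414 and 0.512). Nab2, a corepressor that EGR1 induces and that in turn limits EGR1, had 10.9, 12.0 and 10.7 FPKM in B16F1 libraries 1, 2 and 3 and 10.1 and 10.05 FPKM in the B16F1-CXCL5 libraries. Nab2 was lower in B16F1-CXCL5 without overlap, where Egr1 was higher, and its log2 fold change of -0.13 did not pass (limma adjusted p = 0.723).

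A list of 8 genes held serum response factor, its ETS partners, Mkl1, Mkl2 and the NAB genes, with Nab2 counted here again. Of these 8, 0 passed limma and the median log2 fold change was 0.09. It became 0.0334 when B16F1 library 3 was left out and 0.15 when B16F1 library 1 was. Elk1 and Elk4, ETS partners of serum response factor, had 8.01 ± 1.15 and 8.83 ± 0.255 FPKM, and 7.80 ± 0.954 and 8.66 ± 0.8002 FPKM (SD, n = 3 and 2). Of 4 tested endothelial genes under KLF2 or KLF4 control, 0 passed and the median was 0.09, a value whose sign depended on 1 library, at -0.0075 when B16F1-CXCL5 library 1 was left out and 0.27 when B16F1-CXCL5 library 2 was. It was 0.20 when B16F1 library 3 was left out, 0.0513 when B16F1 library 1 was and -0.0499 with no filter on low values. The list was not split by whether KLF2 or KLF4 raises or lowers the gene, so this median cannot tell how their control differed. S1pr1, the sphingosine phosphate receptor that KLF2 induces in lymphocytes, was higher without overlap at 4.48 ± 0.391 and 5.72 ± 0.945 FPKM, Vcam1 had 0.855 ± 0.184 and 1.17 ± 0.167 FPKM, and Thbd, thrombomodulin, had 3.30 ± 1.24 and 2.98 ± 1.34 FPKM. Of 3 tested genes among NR4A partners and markers of nonclassical monocytes, 0 passed. Rxrg, Cx3cr1, Spn and Treml4 were under the filter, so that Ace was the only monocyte marker tested. Rxra and Rxrb, the dimer partners, had 20.2 ± 0.473 and 19.5 ± 0.593 FPKM, and 22.4 ± 1.67 and 22.7 ± 0.215 FPKM. Ace had 6.43 ± 3.49 and 8.19 ± 0.858 FPKM. EGF family ligands and their receptor, which induce early genes in many cells, had 3 tested genes, 0 of which passed. Areg, Ereg, Btc and Egf were under the filter. Egfr had 2.10 ± 0.559 and 2.07 ± 0.128 FPKM, Hbegf 2.71 ± 0.798 and 2.56 ± 0.728 FPKM, and Tgfa 1.32 ± 0.526 and 0.955 ± 0.192 FPKM.

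**Figure D4:**
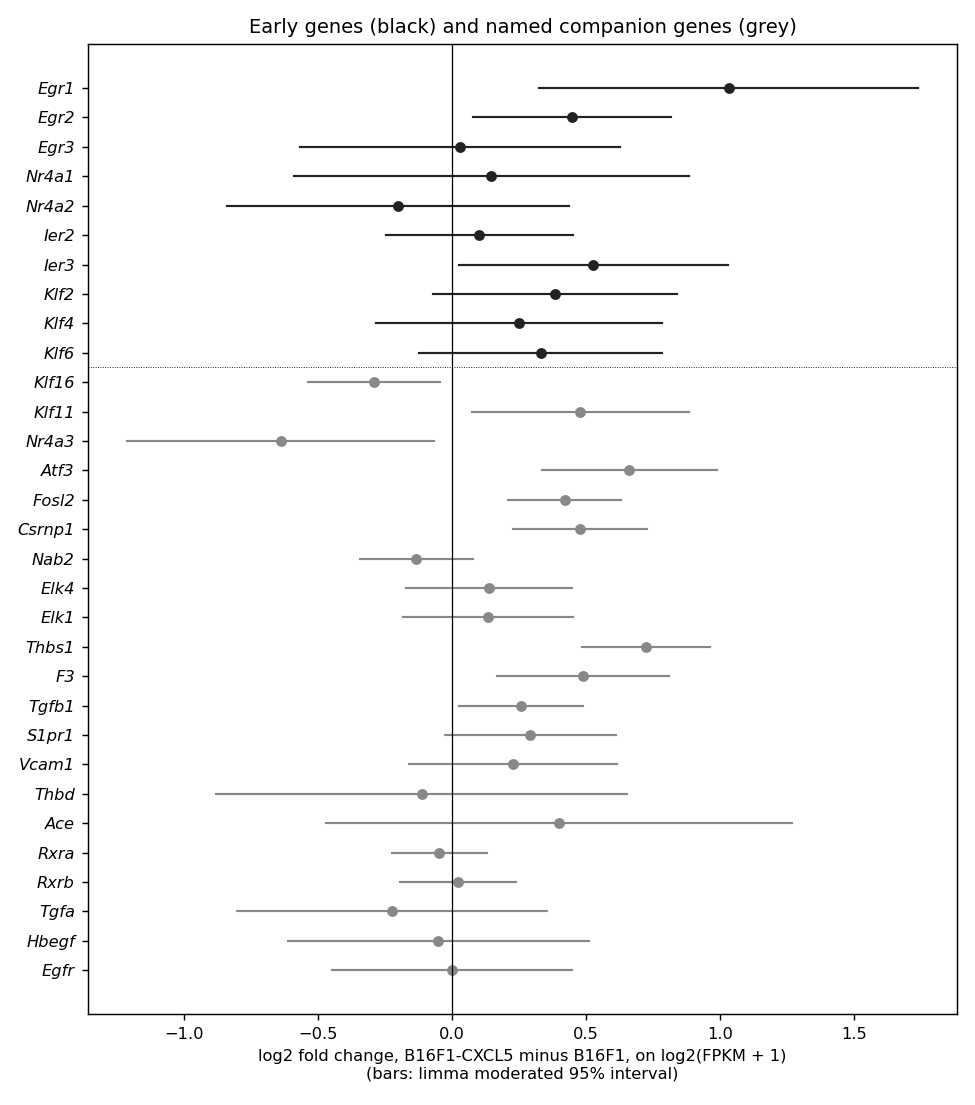
Log2 fold change on log2(FPKM + 1), B16F1-CXCL5 minus B16F1 (x axis), of the 10 early genes (black) and of the named companion genes (grey), with limma moderated 95% intervals before adjustment over genes. Intervals of Egr1, Egr2 and Ier3 lie above 0, and those of the other 7 early genes include 0. Among the companion genes, Klf11, Atf3, Fosl2, Csrnp1, Thbs1, F3 and Tgfb1 lie above 0, and Nr4a3 and Klf16 lie below 0.

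Marker RNA of cell types that can express early genes was summed in each library, and the neutrophil list was the 1 list of 10 with genes that passed limma. The 17 neutrophil markers summed to 28.5 to 67.3 FPKM in B16F1 libraries 1, 2 and 3 and 780.5 to 849 FPKM in the B16F1-CXCL5 libraries, 14 of them were tested and 6 rose by limma, and Ngp, Camp and Ltf were listed at 0 in at least 1 library. This difference goes with the groups, as Egr1, Egr2, Ier3 and Klf2 do, and its part in their values was not tested. The Klf2 margin was within counting noise, and the Egr2 values rested on only about 133 to 281 fragments. Within the B16F1-CXCL5 group, the neutrophil markers and Ier3 were higher in library 2, and Egr1, Egr2 and Klf2 in library 1. This is an order of only 2 libraries, and nothing is concluded from it. The 10 macrophage markers summed to 210 to 308 FPKM in B16F1 and 230 to 347 FPKM in B16F1-CXCL5 tumors, with B16F1-CXCL5 library 1 the highest of the 5.

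Endothelial markers, of a cell type in which Klf2 and Klf4 are well known, summed to 67.3 to 84.7 FPKM in B16F1 and 73.1 to 81.0 FPKM in B16F1-CXCL5 tumors and overlapped. The 9 markers of T and NK cells, in which Nr4a1 and Egr2 are well known, summed to only 2.46 to 3.76 and 3.24 to 4.59 FPKM, and 0 of them passed the filter. Skeletal muscle markers were at 1760 FPKM in B16F1 library 3 and 1310 FPKM in B16F1-CXCL5 library 2, against 528 to 579 FPKM in the other 3 libraries. Fibroblast markers summed to 945 to 1929 FPKM in B16F1 and 1659 to 1862 FPKM in B16F1-CXCL5 tumors, pericyte markers to 73.4 to 134.5 and 94.2 to 105.0 FPKM, and fat markers to 180 to 318 and 210 to 218 FPKM. Without B16F1 library 3, the library with the most muscle, skin and fat, the members that passed limma were still 0, and the smallest adjusted p was that of Klf4 (limma adjusted p = 0.256).

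**Figure D5:**
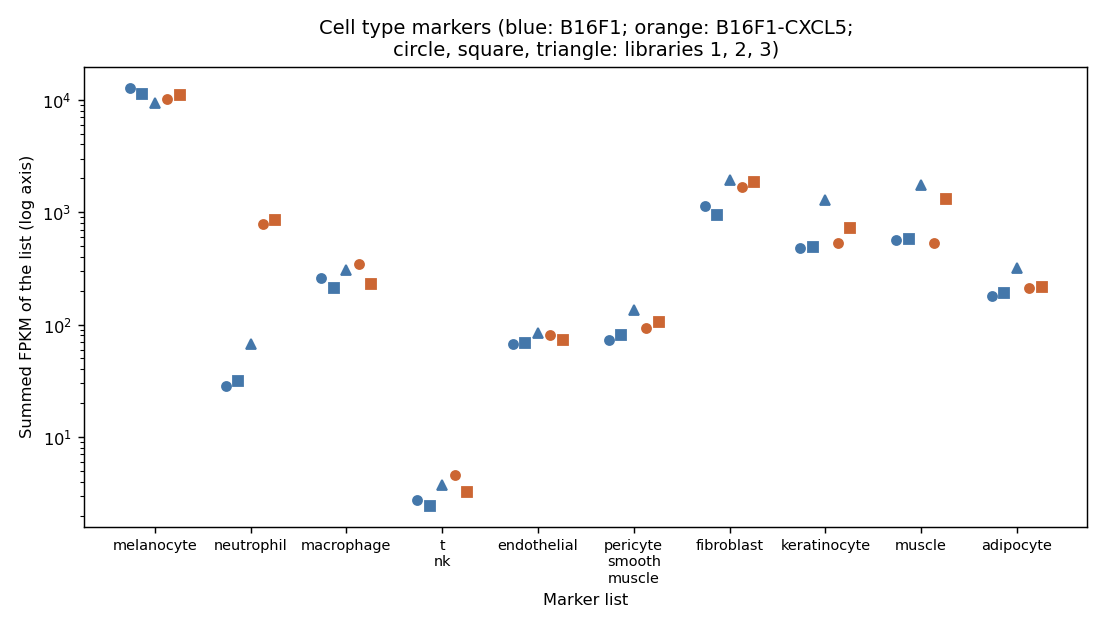
Summed FPKM of each marker list (y axis, log scale) in the B16F1 libraries (blue) and the B16F1-CXCL5 libraries (orange), with circles, squares and triangles for libraries 1, 2 and 3. Neutrophil markers are apart between the groups, at up to 67.3 FPKM in B16F1 and at least 780.5 FPKM in B16F1-CXCL5, and keratinocyte and muscle markers are highest in B16F1 library 3.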

How the data were processed

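The authors deposited 1 table of FPKM values per gene, scaled to transcript length and library size. The submitters' processing notes name TopHat2 2.0.10 and Cufflinks 2.2.1 among their tools and GRCm38 (mm10) as the build, and per the labels' protocols poly(A) RNA with integrity numbers of 8.7 to 9.5 went into stranded libraries. No source used here gives the annotation or strand setting. Cufflinks divides fragments of close copies by a model.

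Columns were matched by title. Limma 3.58.1 in R 4.3.3 was fitted to log2(FPKM + 1) with an intensity trend, over genes with at least 1 FPKM in at least 2 libraries, with Benjamini-Hochberg adjustment over all 12533. The pseudocount of 1 understates changes of low genes. The script was tested on simulated data. Depth came from the spacing of low FPKM values over 3059 genes with 1 transcript of 800 to 6000 nt, with an assumed fragment of 200 nt, and gene positions from GENCODE M21. The members and lists were chosen with earlier results of these data known. Named genes are the members, Cxcl5, the 3 smallest p-values of each companion list and the 5 closest profiles; Klf5, Dusp1, Fos, Ctgf and Cyr61 were added after their values were seen, and genes that the filter removed from a list may be named. Settings tried were other pseudocounts, filters and scalings, no trend, library weights, a replicate block and leaving out each library.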

Additional observations from a re-analysis of the deposited data

How the results depend on the processing

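No member passed in the main setting or in any of the 14 alternatives, and the smallest adjusted p of a member was 0.239, for Egr1 with the replicate block. The members' median log2 fold change stayed between 0.17 and 0.38 with 1 library left out. Directions turned for Egr3 (from -0.14 to 0.23 with 1 library left out), Nr4a1 (from -0.13 to 0.43, and -0.06 with the replicate block), Nr4a2 (from -0.39 to 0.0056) and Ier2 (from -0.0595 to 0.26); the cause was not tested. The other 6 members kept theirs in every setting that tested them. A mean FPKM of at least 3 left 7 members.

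Over all genes, 16 were higher and 1 lower. With a pseudocount of 0.1, 7 were higher, at a minimum mean of 3 FPKM 6, and without the trend 38. Library weights gave 29 higher and 2 lower, and the replicate block 42 and 4. With 1 library left out, 0 to 31 were higher and 2 to 4 lower. The list of other early genes had 0 to 1 higher. Same-numbered libraries 1 and 2 deviated with a correlation of -0.029, so they gave no sign that the numbers pair the tumors. B16F1 library 3 has no partner in the block, so the block gave the same member fold changes as leaving that library out. With 3 libraries against 2, an exact test cannot go below 0.1.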
